A study of Mus musculus with 20 samples.

Results

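Genes of cell cycle arrest and of the p53 response were followed in regulatory T (Treg) cells and in CD4+Foxp3- T cells of mice with and without Tet2 and Tet3 in their Treg cells. The 8 genes described were chosen by symbol: 5 inhibitors of cyclin-dependent kinases (CDKs), Cdkn1a, Cdkn1b, Cdkn2a, Cdkn2c and Cdkn2d, the kinase gene Hipk2, and the p53 target genes Mdm2 and Ccng1. All 8 were among the 16357 genes tested in spleen and peripheral lymph nodes (pLNs) and the 16784 tested in mesenteric lymph nodes (mLN). RNA was sequenced from 20 sorted samples of C57BL/6 mice aged 14 weeks, and the 2 tissues were analysed as separate tables. WT mice carried Foxp3 Cre, a fusion of YFP and Cre inserted into the Foxp3 gene, and DKO mice carried the same Cre with Tet2 and Tet3 alleles flanked by loxP sites (Tet2/3 fl/fl Foxp3 Cre), so that deletion follows Foxp3 expression. Treg cells were sorted as CD4+YFP+ cells and the CD4+Foxp3- cells as CD4+YFP- cells, from both genotypes. There were 2 samples per group in pooled spleen and pLNs and 3 per group in mLN. The study describes the DKO CD4+Foxp3- fraction as holding some cells that had lost Foxp3. The 2 DKO mice of the spleen experiment were littermates that differed in the severity of disease, and the labels do not tell which number is which mouse. The study calls the samples biological replicates. The labels do not tell which sample came from which mouse, so p-values measure the spread between these samples.

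CDK inhibitors hold cells back from division. The Cip/Kip proteins p21 (from Cdkn1a) and p27 (from Cdkn1b) bind complexes of cyclin E or cyclin A with CDK2, whereas the INK4 proteins p16 (from Cdkn2a), p18 (from Cdkn2c) and p19INK4d (from Cdkn2d) bind CDK4 and CDK6. Cdkn2a also encodes Arf, read from another first exon in another frame, which binds MDM2 and so protects p53 from degradation. MDM2 is the ubiquitin ligase of p53 and a p53 target itself, HIPK2 is a kinase that phosphorylates p53, and Cdkn1a, Mdm2 and Ccng1 (cyclin G1) are textbook p53 targets. TET proteins oxidise 5-methylcytosine, which in mammals lies mostly at CpG.

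The promoter windows of 4 of these genes are shown because Cdkn1a and Cdkn2a have alternative starts whose sequences differ, and because Cdkn1a, Hipk2 and Mdm2, all tied to p53, are set side by side below. Each is the 250 bases before an annotated start (RefSeq, GRCm38.p6), written 5′ to 3′ on the gene's strand. All 8 genes matched this table, with 12 windows. Capitals mark the p53 response element consensus (a pair of copies with at most 13 bases between them) where it was found, and otherwise the letters GGGCGG, a GC box, or CCGCCC, the same box on the other strand.
Cdkn1a, upstream start (chr17:29090729-29090978, plus strand): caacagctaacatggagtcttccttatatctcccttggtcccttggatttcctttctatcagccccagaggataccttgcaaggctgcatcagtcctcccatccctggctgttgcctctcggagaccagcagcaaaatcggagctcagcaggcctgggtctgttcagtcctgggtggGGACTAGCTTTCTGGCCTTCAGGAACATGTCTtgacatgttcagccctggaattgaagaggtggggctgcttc
Cdkn1a, downstream start (chr17:29093519-29093768, plus strand): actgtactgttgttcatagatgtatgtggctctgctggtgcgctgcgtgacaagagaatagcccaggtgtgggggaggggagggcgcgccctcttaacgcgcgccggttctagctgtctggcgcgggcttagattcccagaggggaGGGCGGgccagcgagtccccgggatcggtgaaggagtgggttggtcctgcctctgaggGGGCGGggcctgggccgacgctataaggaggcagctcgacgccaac
Cdkn2a, Arf start (chr4:89294620-89294869, minus strand): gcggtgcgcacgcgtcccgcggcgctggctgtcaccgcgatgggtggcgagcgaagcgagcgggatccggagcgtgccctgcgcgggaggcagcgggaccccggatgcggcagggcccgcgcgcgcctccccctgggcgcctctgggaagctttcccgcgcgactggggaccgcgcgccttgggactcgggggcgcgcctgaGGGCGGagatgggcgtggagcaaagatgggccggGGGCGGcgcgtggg
Cdkn2a, p16 start (chr4:89282193-89282442, minus strand): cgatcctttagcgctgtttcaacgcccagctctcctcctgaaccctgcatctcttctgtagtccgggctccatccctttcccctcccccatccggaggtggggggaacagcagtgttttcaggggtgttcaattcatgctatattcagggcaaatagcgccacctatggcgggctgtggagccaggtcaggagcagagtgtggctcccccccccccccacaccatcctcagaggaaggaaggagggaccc
Hipk2, upstream start (chr6:38876191-38876440, minus strand): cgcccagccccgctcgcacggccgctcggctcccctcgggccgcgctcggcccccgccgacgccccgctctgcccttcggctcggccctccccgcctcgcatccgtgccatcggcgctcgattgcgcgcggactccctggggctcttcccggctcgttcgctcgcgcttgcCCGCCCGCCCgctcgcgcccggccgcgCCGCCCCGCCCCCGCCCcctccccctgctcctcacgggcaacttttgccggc
Mdm2 (chr10:117710759-117711008, minus strand): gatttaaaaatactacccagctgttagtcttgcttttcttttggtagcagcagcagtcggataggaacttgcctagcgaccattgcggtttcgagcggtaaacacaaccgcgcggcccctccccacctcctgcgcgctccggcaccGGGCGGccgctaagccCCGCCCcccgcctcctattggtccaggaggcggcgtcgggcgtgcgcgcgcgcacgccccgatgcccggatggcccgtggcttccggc

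The upstream Cdkn1a window held the 1 match to the p53 consensus among the 12 windows, between 73 and 42 bases before the start, whereas 0.0639% of all 32851 windows held one, on either strand. The start of the downstream Cdkn1a window lies 2790 bases further on, and that window held no such match but 2 GC boxes and 19 CpG. GC boxes were common, being found in 32.7% of all windows. The windows differed widely in CpG: the upstream Hipk2 window held 43, more than 99.3% of all windows, and the Arf window of Cdkn2a held 40, more than 98.7%, against 7 in the p16 window, 2 in the upstream Cdkn1a window and 29 in that of Mdm2. A further annotated start of Hipk2, 38879 bases away, had 1 CpG in its window, which is not shown. The median window held 6. All motifs were searched on both strands, with overlapping matches counted. TTCCCGC, which resembles a site of E2F factors, was found in the Arf window and in a window of Cdkn2c (3.82% of all windows), whereas the E-box CACGTG was in 0 of the 12 (6.02% of all), as was the core promoter motif TATAAA (12.4% of all). A match describes letters only, and methylation was not measured in these data.

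Each library of spleen and pLNs held between 13525932 and 15253141 counted reads, and each of mLN between 9998478 and 15449158. Levels are given as CPM (counts scaled to a common library size) after TMM normalization, and the floor of 3 counts corresponded to between 0.172 and 0.299 CPM. The counts are summed over whole genes, so loss of a part of Tet2 or Tet3 need not lower them. The study reports loss of Tet2 and Tet3 mRNA in the CD4+YFP+ cells of DKO mice, which whole-gene counts do not address. In Treg cells of mLN, Tet2 averaged 10.6 ± 2.6 CPM in DKO against 10.5 ± 0.25 CPM in WT (SD, n = 3). It stood at 2.05 and 8.01 CPM in the DKO against 1.11 and 2.08 CPM in the WT Treg libraries of spleen and pLNs. Tet3 stood at 61.0 and 38.1 CPM in those DKO against 31.0 and 30.6 CPM in those WT libraries, without overlap and above WT (adjusted p = 0.101). In Treg cells of mLN Tet3 averaged 63.4 CPM in DKO against 77.9 CPM in WT, with overlap (adjusted p = 0.368). Foxp3, which defines the sort, lay between 153 and 419 CPM in the Treg libraries and between 0.211 and 2.75 CPM in the CD4+Foxp3- libraries. All 5 T cell markers of 6 listed that the tables hold were detected in every group.

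Summed markers of plasma cells (4 of 5 listed) moved with genotype, from at most 9.96 CPM in any WT library to between 4.58 and 493 CPM in DKO libraries. The sums were highest in both number 2 DKO libraries of mLN and, in the spleen experiment, in both number 1 DKO libraries (93.2 and 126 CPM). Summed NK and CD8 markers (4 of 4) lay between 21.2 and 28.4 CPM in WT and between 75.4 and 160 CPM in DKO Treg cells of mLN, and between 23.3 and 27.1 against 98.1 and 119 CPM in those of spleen and pLNs. These sums followed the NK marker Klrb1c (5.02 to 8.19 against 72.3 to 155 CPM in mLN), whereas the CD8 marker Cd8b1 went the other way (15.7 to 20.5 against 2.80 to 3.78 CPM), and 2 of the 4 markers had the higher mean in DKO Treg cells of each tissue. Both genes are named after their values were seen. Myeloid sums (6 of 6) were also higher in DKO Treg cells of mLN (84.0 to 119 against 60.2 to 75.1 CPM). Of the 6 myeloid markers, 4 had a positive log2 fold change there, with 2 called higher and 0 lower. B cell (6 of 6) and stroma (4 of 4) sums overlapped in DKO and WT Treg cells of mLN. Of the 6 B cell markers, however, 5 had a positive log2 fold change there (median 2.70), with 2 called higher and 1 lower, Cd79b, which made up most of the WT sum (26.4 to 34.2 against 5.45 to 16.4 CPM). In Treg cells of spleen and pLNs the DKO sums were lower for myeloid (99.2 and 108 against 109 and 114 CPM) and B cell markers (11.1 and 16.6 against 28.2 and 30.5 CPM). Each of these 2 sums followed 1 abundant gene, Cst3 (76.1 and 98.8 against 107 and 113 CPM) and Cd79b (5.27 and 7.65 against 26.2 and 28.8 CPM). The other 5 markers of each list had positive log2 fold changes, with list medians of 2.25 for myeloid (2 called higher, 0 lower) and 1.60 for B cell markers (1 higher, 1 lower). Cst3 and Cd79b are named after their values were seen. Stroma sums were higher in DKO (103 and 110 against 89.2 and 92.2 CPM). Neutrophil markers (6 of 6, spleen and pLNs) were all at 0 in WT Treg cells and summed to 1.37 and 7.61 CPM in DKO Treg cells. Treg markers (5 of 5) summed to between 178 and 348 CPM in DKO against 133 to 137 CPM in WT CD4+Foxp3- cells of mLN. Of the 5, 4 had a positive log2 fold change in CD4+Foxp3- cells of each tissue, but Foxp3 itself overlapped. It stood at 0.211 to 2.75 CPM in DKO against 1.35 to 1.62 CPM in WT in mLN, and at 0.251 and 0.741 against 0.684 and 0.563 CPM in spleen and pLNs. In Treg cells of mLN the sums of Treg markers were lower in DKO (1480 to 1679 against 1878 to 2040 CPM), and in those of spleen and pLNs they overlapped. The CD4+Foxp3- cells moved as well. In mLN their NK and CD8 sums lay between 40.4 and 141 CPM in DKO against 29.8 to 34.2 CPM in WT, and their B cell sums between 3.28 and 16.5 against 2.69 to 2.84 CPM, while myeloid sums overlapped. In spleen and pLNs their DKO sums were higher for Treg (226 and 707 against 199 and 220 CPM), B cell (7.56 and 36.3 against 4.18 and 4.18 CPM) and myeloid markers (96.1 and 112 against 78.9 and 81.0 CPM). Their NK and CD8 sums were 114 and 216 against 72.8 and 113 CPM. The part of such other cells in the values below was not tested, and in sorted bulk samples a change in the mix of cells and a change in RNA per cell cannot be told apart.

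In mLN, DKO Treg cells held more Cdkn1a, Cdkn2a, Cdkn2c and Hipk2 RNA than WT Treg cells, and none of the 8 genes fell past the threshold. Thus 4 of 8 rose at an adjusted p of at most 0.05 with at least 1.5-fold change (edgeR's quasi-likelihood test, adjusted over all genes), where 8.50% of all genes tested rose and 3.43% fell. In spleen and pLNs, 2 of 8, Cdkn1a and Hipk2, rose in DKO Treg cells, where 1.14% of all genes rose and 0.605% fell. Without both number 2 DKO libraries of mLN, those with the highest plasma cell sums, the count in mLN Treg cells was again 4, where 14% of all genes passed in either direction. Without both number 1 DKO libraries of spleen and pLNs it was 4 there, 3 higher and Cdkn1b lower, but 8.20% of all genes then passed and each DKO group was 1 library. The median log2 fold change of the 8 genes was 0.64 in mLN and 0.10 in spleen and pLNs, beside medians over all genes of 0.0045 and 0.018. In CD4+Foxp3- cells, Cdkn1a and Cdkn2c rose in mLN, where 3.12% of all genes rose and 0.304% fell. For the CD4+Foxp3- cells of spleen and pLNs 0 of 8 passed with edgeR and 0 with DESeq2 (3 had an unadjusted p under 0.05), where 0.770% of all genes rose and 0.0489% fell. The spleen calls of Cdkn1a and Hipk2 were lost with edgeR's filterByExpr (adjusted p = 0.0896 and 0.122) and robust prior (0.0558 and 0.119), and the CD4+Foxp3- calls of Cdkn1a and Cdkn2c in mLN when only those 2 groups were fitted (0.161 and 0.171). The robust prior also ended the Cdkn2c calls of mLN (0.0787 in Treg and 0.0805 in CD4+Foxp3- cells). The study named Cdkn1a, Cdkn2a and Hipk2 from the Treg libraries of spleen and pLNs, so their direction there is not independent evidence.

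**Figure D1:**
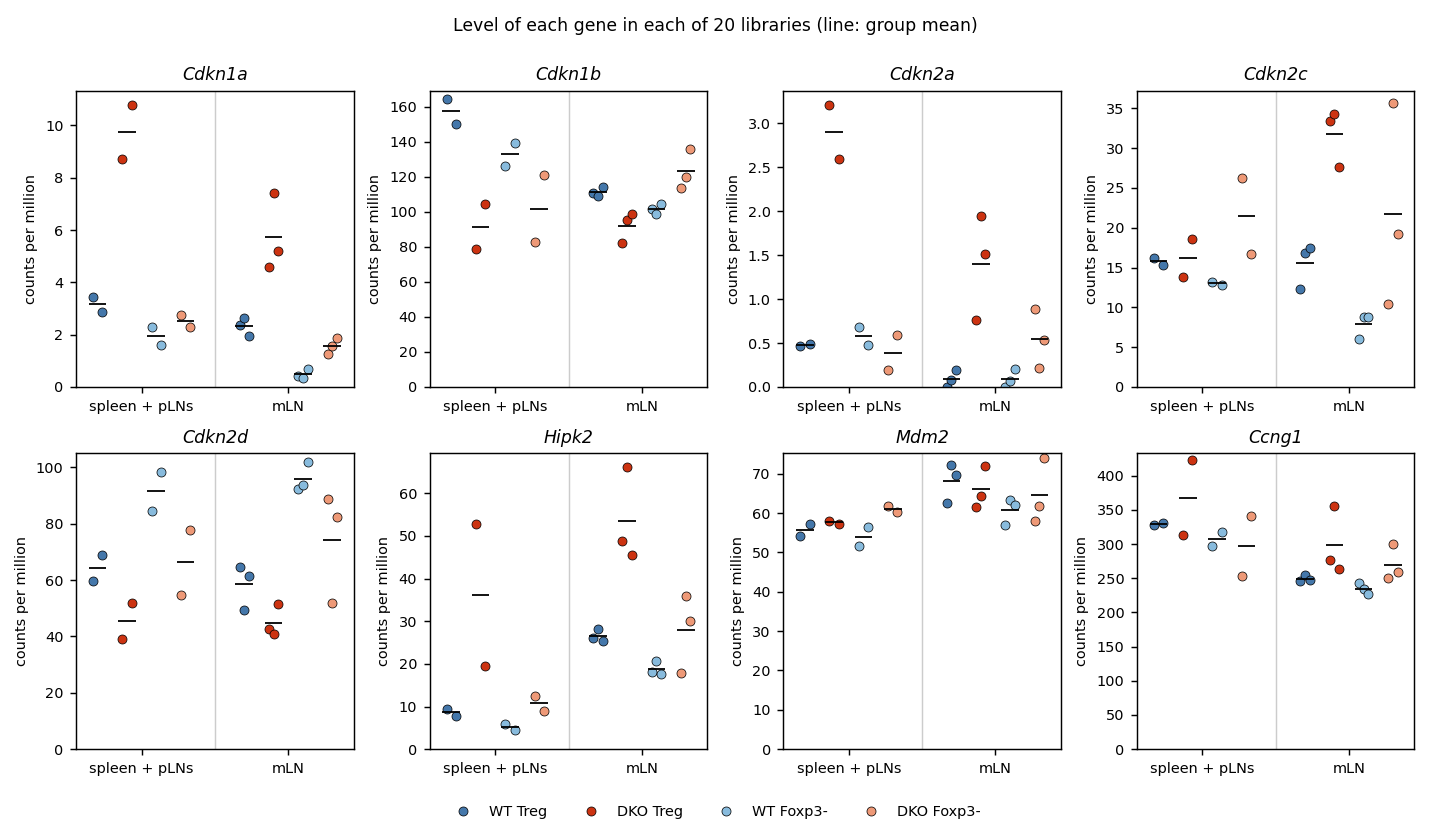
Level of each of the 8 genes (CPM, linear axes from 0) in each of the 20 libraries, by tissue and group, with a line at each group mean. The DKO Treg libraries lie above all WT Treg libraries for Cdkn1a, Cdkn2a and Hipk2 in both tissues, whereas the groups overlap or nearly touch for Mdm2. The share of all genes that separate in this way was not counted, and each group of spleen and pLNs holds only 2 libraries.

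**Figure D2:**
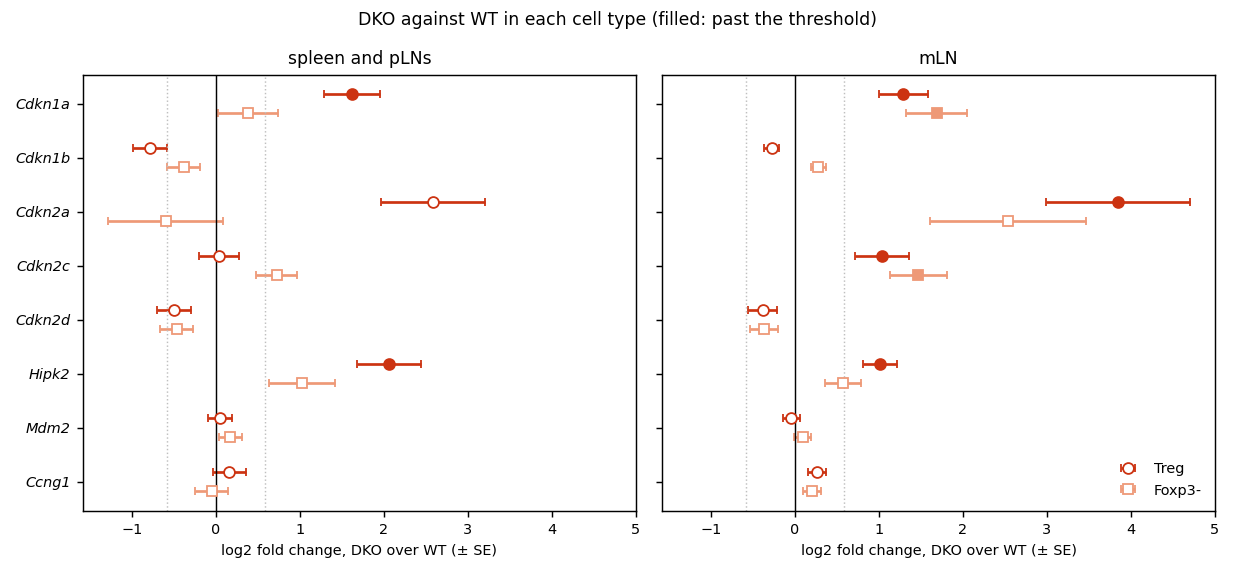
Log2 fold change of DKO over WT with its standard error for each gene, in Treg cells (circles) and CD4+Foxp3- cells (squares), for spleen and pLNs and for mLN. Filled symbols passed the threshold, and dotted lines mark 1.5-fold. Cdkn1a and Hipk2 are filled for Treg cells in both panels, and Mdm2 sits near 0 for Treg cells.

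Cdkn1a, which encodes p21 (chr17:29227924-29237667, NCBIM37, plus strand), rose in DKO Treg cells of both tissues. In mLN Treg cells the WT libraries held 2.38, 2.65 and 1.97 CPM, the DKO libraries 4.58, 7.40 and 5.20 CPM. Every DKO library exceeded every WT library, and the log2 fold change was 1.29 ± 0.29 (SE; adjusted p = 0.00846, edgeR). The WT Treg libraries of spleen and pLNs held 3.46 and 2.85 CPM and the DKO libraries 8.70 and 10.8 CPM, and the log2 fold change was 1.62 ± 0.34 (adjusted p = 0.0372, edgeR). This spleen call was lost when any 1 of the 4 Treg libraries was left out, with log2 fold changes of 1.46 to 1.77 and adjusted p between 0.0515 and 0.543. The mLN call held under each of 9 alternatives and without each of 6 libraries.

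CD4+Foxp3- cells of mLN held less Cdkn1a, with 0.426, 0.338 and 0.698 CPM in WT, or 5, 5 and 7 counts, against 1.24, 1.55 and 1.86 CPM in DKO. The groups did not overlap and the log2 fold change was 1.69 ± 0.36 (adjusted p = 0.0231, edgeR). It missed the threshold without WT number 1, WT number 2 or DKO number 3 (adjusted p = 0.111, 0.121 and 0.0533). Those of spleen and pLNs stood at 2.28 and 1.61 CPM in WT against 2.76 and 2.30 CPM in DKO, with a log2 fold change of 0.38 ± 0.36 (adjusted p = 0.754). The DKO effect was not shown to differ between the cell types in either tissue: the interaction was -0.40 ± 0.45 in mLN (adjusted p = 0.848) and 1.24 ± 0.49 in spleen and pLNs (adjusted p = 0.902).

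Cdkn1a also separated Treg cells from CD4+Foxp3- cells. It was higher in Treg cells of WT mice in mLN (log2 fold change 2.28 ± 0.36, adjusted p = 0.000842) and of DKO mice in mLN (1.88 ± 0.30, adjusted p = 0.000943) and in spleen and pLNs (1.94 ± 0.34, adjusted p = 0.00664; 0.0525 without DKO Treg number 1). In WT mice of the spleen experiment the value was 0.69 ± 0.35 (adjusted p = 0.439). Its Cip/Kip relative Cdkn1c (p57) was at 2.18 ± 0.48 CPM in WT against 1.92 ± 0.21 CPM in DKO Treg cells of mLN (SD, n = 3), without a detectable difference (adjusted p = 0.707).

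Cdkn1b, the gene of p27 (chr6:134870419-134875531, NCBIM37, plus strand), went the other way in Treg cells. In mLN the WT Treg libraries held 111, 109 and 114 CPM and the DKO Treg libraries 82.0, 95.5 and 98.7 CPM. All DKO values lay below all WT values. The log2 fold change of -0.28 ± 0.09 (adjusted p = 0.0429, edgeR) was under 1.5-fold and was therefore not called. The Treg libraries of spleen and pLNs held 165 and 150 CPM in WT against 78.6 and 105 CPM in DKO, again without overlap (log2 fold change -0.78 ± 0.20, adjusted p = 0.0702). It passed with DESeq2 (adjusted p = 0.0295), with only the 2 groups fitted (0.0208) and without DKO Treg number 2 (0.0309). For the CD4+Foxp3- cells of mLN the order was reversed, with 102, 98.6 and 104 CPM in WT against 114, 120 and 136 CPM in DKO, and a log2 fold change of 0.28 ± 0.09 (adjusted p = 0.101). Those of spleen and pLNs held 126 and 140 CPM in WT against 82.9 and 121 CPM in DKO (-0.38 ± 0.20, adjusted p = 0.462).

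The opposite course of Cdkn1b in the cell types of mLN was tested as the interaction of genotype and cell type. Its value was -0.55 ± 0.12 on the log2 scale, with an adjusted p of 0.0800 in the test used throughout and of 0.0342 when the Treg and CD4+Foxp3- libraries of the same number and genotype were treated as pairs. The interaction passed for 0 of 8 genes in the first test, where 0.280% of all genes passed, with 1 gene at an unadjusted p under 0.05. DESeq2 called 1 of the 8, but also 409 of all 16784 genes, against 47 in the first test. In spleen and pLNs the interaction passed for 0 of 8 with edgeR and 0 with DESeq2 (2 at an unadjusted p under 0.05), where 0.00611% of all genes passed with edgeR. Within DKO mice of mLN, Cdkn1b was lower in Treg than in CD4+Foxp3- cells (log2 fold change -0.42 ± 0.09, adjusted p = 0.00485, under 1.5-fold).

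Cdkn2a (chr4:88920377-88940557, NCBIM37, minus strand) rose in DKO Treg cells of mLN, and its counts sum the p16 and Arf forms, which share exons and cannot be told apart here. In mLN the WT Treg libraries held 0, 1 and 2 counts and the DKO Treg libraries 10, 27 and 18 counts, or 0.764, 1.94 and 1.51 CPM. No WT library passed the floor of 3 counts, while every DKO library did. The summed counts, 3 against 55, gave a ratio of 16.2 in normalized level, with an exact 95% counting interval of 5.27 to 81.0 that covers counting error only, and the adjusted p was 0.0076 (edgeR). This call held under each of 9 alternatives and without each of 6 libraries, with log2 fold changes of 3.28 to 4.79 when 1 was left out.

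Cdkn2a stood at 0.461 and 0.487 CPM in WT Treg cells of spleen and pLNs (6 and 7 counts) against 3.21 and 2.59 CPM in DKO Treg cells (56 and 38 counts). The groups were far apart, but the adjusted p of 0.0585 missed the threshold (log2 fold change 2.59 ± 0.62). DESeq2 gave 0.0363. The counts in CD4+Foxp3- cells of mLN were 0, 1 and 2 in WT and 10, 3 and 6 in DKO, a ratio of 6.30 with a counting interval of 1.85 to 33.2 (adjusted p = 0.155). In those of spleen and pLNs they were 9 and 6 in WT and 3 and 8 in DKO, so no difference was detectable at this depth (log2 fold change -0.60 ± 0.68). Within DKO mice of the spleen experiment, Cdkn2a was higher in Treg than in CD4+Foxp3- cells (log2 fold change 2.90 ± 0.63, adjusted p = 0.0244), which was lost without DKO Treg number 1 (adjusted p = 0.183) or number 2 (adjusted p = 0.0613). Both cell types came from the same DKO littermates, and with libraries paired by number within genotype the adjusted p was 0.0893. Cdkn2b, which encodes p15 and whose annotated end lies 11640 bases from Cdkn2a, was not detectably changed: in Treg cells of mLN it averaged 0.244 ± 0.31 CPM in DKO against 0.143 ± 0.09 CPM in WT (SD, n = 3; adjusted p = 0.751), at or near the floor. In those of spleen and pLNs it averaged 0.508 ± 0.15 against 0.463 ± 0.33 CPM (SD, n = 2; adjusted p = 1).

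Cdkn2c, which encodes p18 (chr4:109333481-109339794, NCBIM37, minus strand), rose in both cell types of mLN. Its Treg levels there were 12.3, 16.8 and 17.5 CPM in WT against 33.5, 34.3 and 27.6 CPM in DKO. The DKO libraries lay well above the WT libraries (log2 fold change 1.03 ± 0.32, adjusted p = 0.0403, edgeR). Leaving out any 1 of the 6 libraries raised the adjusted p to between 0.0525 and 0.150. The CD4+Foxp3- libraries of mLN held 6.04, 8.84 and 8.78 CPM in WT against 10.4, 35.7 and 19.3 CPM in DKO, a log2 fold change of 1.47 ± 0.34 (adjusted p = 0.0322, edgeR). DKO number 2, the library with the highest plasma cell sum, held the most Cdkn2c, and without it the log2 fold change was 0.92 (adjusted p = 0.0570). The call was also lost without any 1 of the 3 WT libraries (adjusted p between 0.0986 and 0.148).

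Cdkn2c did not separate the Treg groups of spleen and pLNs, with 16.2 and 15.4 CPM in WT against 13.9 and 18.6 CPM in DKO (log2 fold change 0.04 ± 0.24, 95% interval -0.43 to 0.51). The CD4+Foxp3- cells held 13.2 and 12.9 CPM in WT against 26.2 and 16.7 CPM in DKO (0.72 ± 0.24, adjusted p = 0.204). Between the cell types of WT mice in mLN, the Treg level of Cdkn2c was higher by 0.97 ± 0.34 on the log2 scale, with an adjusted p of 0.0759 without and 0.0435 with pairing by number. It was called in 5 of 10 alternatives and in 0 of 6 fits with 1 library left out.

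Cdkn2d, the gene of p19INK4d (chr9:21092907-21095653, NCBIM37, minus strand), differed between the cell types of mLN. The mLN Treg cells held 64.6, 49.5 and 61.6 CPM in WT against 42.5, 40.9 and 51.3 CPM in DKO, and the CD4+Foxp3- cells 92.4, 93.8 and 102 CPM in WT against 88.7, 51.9 and 82.4 CPM in DKO. All Treg libraries lay below all CD4+Foxp3- libraries except DKO number 2. Cdkn2d was lower in Treg than in CD4+Foxp3- cells of both WT mice (log2 fold change -0.71 ± 0.17, adjusted p = 0.0125) and DKO mice (-0.73 ± 0.17, adjusted p = 0.0102) of mLN. The WT call was lost without WT Treg number 2 (adjusted p = 0.0659) or WT CD4+Foxp3- number 3 (adjusted p = 0.0537). The DKO to WT values were -0.38 ± 0.17 in Treg and -0.37 ± 0.17 in CD4+Foxp3- cells of mLN, and -0.50 ± 0.20 and -0.46 ± 0.20 in spleen and pLNs, and none of these 4 passed (adjusted p between 0.140 and 0.341). The Treg libraries of spleen and pLNs held 59.6 and 68.8 CPM in WT against 39.0 and 52.0 CPM in DKO, and the CD4+Foxp3- libraries 84.5 and 98.5 CPM in WT against 54.9 and 77.8 CPM in DKO.

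Over the 8 genes, the comparisons of cell types within a genotype gave few calls. In WT mice of mLN 1 gene was higher in Treg cells (Cdkn1a), where 6.91% of all genes were higher, and 1 was lower (Cdkn2d), where 3.14% were lower. In DKO mice of mLN 2 were higher (Cdkn1a and Hipk2), against 7.75% of all genes, and 1 was lower (Cdkn2d), against 3.49%. For the DKO mice of spleen and pLNs 3 were higher in Treg cells (Cdkn1a, Cdkn2a and Hipk2), where 2.16% of all genes were higher and 1.61% lower. None of these 3 passed when only the 2 groups compared were fitted, and neither did Hipk2 and Cdkn2d in DKO mice of mLN (adjusted p = 0.0809 and 0.0718). In WT mice of spleen and pLNs 0 of 8 passed with edgeR and 0 with DESeq2 (1 had an unadjusted p under 0.05), where 2.48% of all genes were higher and 1.52% lower.

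Hipk2, encoding a nuclear kinase that can act on p53 (chr6:38644389-38826189, NCBIM37, minus strand), rose in DKO Treg cells of both tissues. In mLN the Treg libraries held 26.1, 28.3 and 25.3 CPM in WT against 48.9, 66.3 and 45.5 CPM in DKO. The groups were well separated, with a log2 fold change of 1.01 ± 0.21 (adjusted p = 0.00475, edgeR), and the call held under each of 9 alternatives and without each of 6 libraries. Those of spleen and pLNs held 9.45 and 7.87 CPM in WT against 52.7 and 19.6 CPM in DKO (log2 fold change 2.06 ± 0.38, adjusted p = 0.0222, edgeR). The DKO values differed more from each other than in mLN: without DKO Treg number 1 the log2 fold change was 1.18 (adjusted p = 0.341). The call was also lost without either WT Treg library (adjusted p = 0.351 and 0.480).

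Hipk2 did not pass in CD4+Foxp3- cells of either tissue. The mLN libraries held 18, 20.7 and 17.7 CPM in WT against 17.9, 36.0 and 30.1 CPM in DKO (log2 fold change 0.57 ± 0.21, adjusted p = 0.157), and 1 DKO library lay within the WT range. Those of spleen and pLNs held 6.00 and 4.58 CPM in WT against 12.6 and 9.04 CPM in DKO (1.03 ± 0.39, adjusted p = 0.275). Within DKO mice, Hipk2 was higher in Treg than in CD4+Foxp3- cells of mLN (0.93 ± 0.21, adjusted p = 0.00686) and of spleen and pLNs (1.74 ± 0.38, adjusted p = 0.0232; 0.85 with adjusted p = 0.284 without DKO Treg number 1). Paired by number within genotype, the adjusted p in spleen and pLNs was 0.0508. Reads of Hipk2 overlap a gene on the opposite strand, Tbxas1, and the counting used strand.

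The related kinase genes went in opposite directions. Hipk1 averaged 278 ± 15 CPM in WT against 216 ± 26 CPM in DKO Treg cells of mLN (log2 fold change -0.37 ± 0.10, adjusted p = 0.0198), and Hipk3 163 ± 12 against 235 ± 40 CPM (0.53 ± 0.14, adjusted p = 0.0188; SD, n = 3), both under 1.5-fold.

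Unlike Cdkn1a, the p53 targets Mdm2 and Ccng1 passed in none of the 4 comparisons of the genotypes. Mdm2 (chr10:117125944-117147814, NCBIM37, minus strand) stood at 62.6, 72.1 and 69.6 CPM in WT against 61.6, 64.5 and 72.1 CPM in DKO Treg cells of mLN. The ranges overlapped and the log2 fold change was -0.05 ± 0.10, with a 95% interval of -0.25 to 0.16. The Treg levels in spleen and pLNs were 54.2 and 57.1 CPM in WT against 58.0 and 57.2 CPM in DKO (0.05 ± 0.14, interval -0.22 to 0.32). The intervals of Mdm2 in Treg cells thus lay within 1.5-fold in both tissues. The log2 fold changes in CD4+Foxp3- cells were 0.09 ± 0.10 in mLN (libraries from 56.9 to 74.1 CPM) and 0.17 ± 0.14 in spleen and pLNs (libraries from 51.6 to 61.7 CPM), with adjusted p of 0.665 and 0.691.

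Ccng1 (chr11:40562054-40568813, NCBIM37, minus strand) encodes cyclin G1. The mLN Treg libraries held 245, 254 and 247 CPM in WT against 276, 356 and 264 CPM in DKO. Every DKO value was higher, by a log2 fold change of 0.26 ± 0.11 that did not pass (adjusted p = 0.110, interval 0.05 to 0.47). Those of spleen and pLNs held 327 and 331 CPM in WT against 313 and 423 CPM in DKO (0.16 ± 0.19, adjusted p = 0.690). The CD4+Foxp3- values were 243, 234 and 227 against 251, 300 and 260 CPM in mLN (0.20 ± 0.11, adjusted p = 0.338), and 298 and 317 against 254 and 341 CPM in spleen and pLNs (-0.05 ± 0.19, adjusted p = 0.997).

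p53 itself (Trp53) and Mdm4, the partner of MDM2, were not higher in DKO Treg cells. Trp53 averaged 174 ± 8.4 CPM in WT against 159 ± 7.2 CPM in DKO Treg cells of mLN (SD, n = 3; adjusted p = 0.240), and Mdm4 116 ± 3.7 against 85.3 ± 13 CPM (log2 fold change -0.45 ± 0.14, adjusted p = 0.0364, under 1.5-fold).

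Levels were compared between genes per length of transcript, with the deposited TPM, which scale counts by transcript length and then to a common total. Ccng1 was first and Cdkn1b the next in all 8 groups, at 130 ± 5.4 and 84.6 ± 4.1 TPM in WT Treg cells of mLN (SD, n = 3). Cdkn2a was last in all 8. Between them in WT Treg cells of mLN stood Cdkn2d (42.0 ± 5.4 TPM) and Mdm2 (40.2 ± 3.9 TPM), whose libraries overlapped, then Cdkn2c (12.6 ± 2.6 TPM) and Hipk2 (10.6 ± 0.68 TPM), which overlapped as well. Cdkn1a followed (2.1 ± 0.29 TPM). In DKO Treg cells of mLN Mdm2 (43.9 ± 3.2 TPM) stood before Cdkn2d (36.4 ± 4.6 TPM), their nearest libraries almost touching. Cdkn2c (29.1 ± 3.6 TPM) and Hipk2 (24.0 ± 4.4 TPM) again overlapped, and Cdkn1a reached 5.80 ± 1.3 TPM. Of the Cip/Kip genes, Cdkn1b stood over Cdkn1a in every library. Cdkn2c held 21.7 TPM at 16.2 CPM in WT Treg number 1 of spleen and pLNs, but 9.65 TPM at 12.3 CPM in that of mLN. Cdkn1b held 101 TPM at 165 CPM and 81.3 TPM at 111 CPM in the same libraries. The length behind the Cdkn2c values may thus differ between the 2 tables, which was not tested, so they are read within a tissue.

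**Figure D3:**
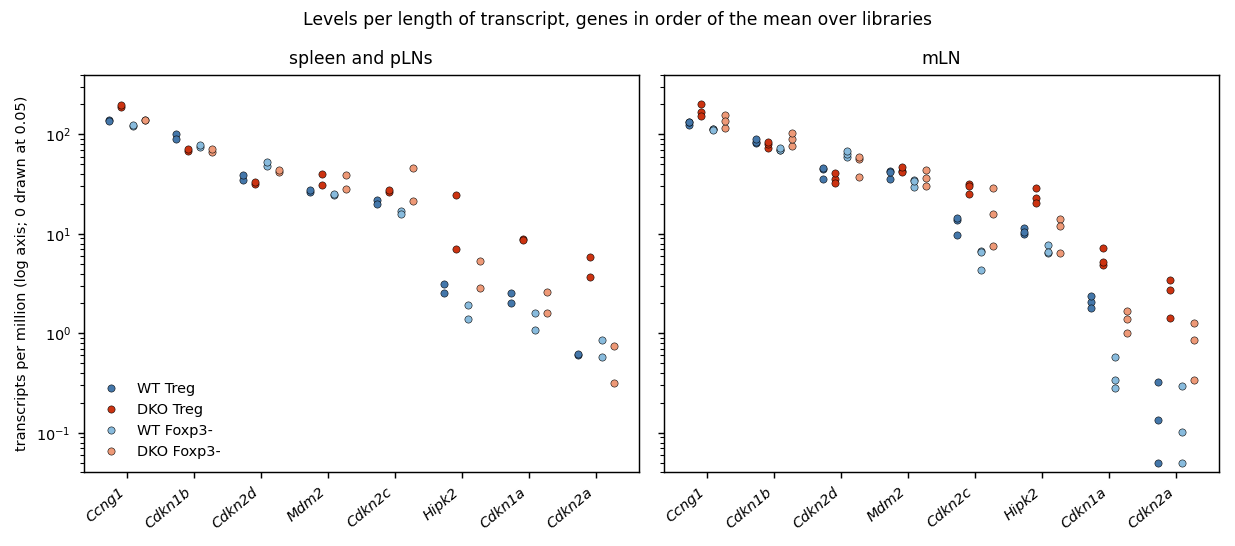
TPM of the 8 genes in every library (log axis, with 0 drawn at 0.05), genes ordered by their mean over all libraries of a tissue, coloured by group. Ccng1 and Cdkn1b lead in both tissues, and Cdkn2a is last, with DKO Treg libraries above those of the other groups.

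Genes of the surrounding pathways were counted from lists written from general knowledge, and Zmat3, Phlda3, Pidd1, Ei24, Myc and Ccne2 are named after their values were seen. The counts stand beside the shares of all genes given above, which for rises were 8.50% in Treg and 3.12% in CD4+Foxp3- cells of mLN, and 1.14% and 0.770% in those of spleen and pLNs. Of 18 further p53 targets of arrest and repair, 2 rose and 0 fell in DKO Treg cells of mLN, with a list median of -0.16. They were Sesn2, a stress-induced sestrin (log2 fold change 1.16 ± 0.33, adjusted p = 0.0258), and the DNA polymerase gene Polk (0.64 ± 0.21, adjusted p = 0.0455). Sesn2 (1.72 ± 0.23, adjusted p = 0.0042) and Zmat3 (0.85 ± 0.16, adjusted p = 0.0222) were the 2 of 18 that rose in Treg cells of spleen and pLNs. Among CD4+Foxp3- cells 0 of 18 passed in mLN with edgeR and 1 with DESeq2 (7 had an unadjusted p under 0.05), and Phlda3 rose in spleen and pLNs (2.03 ± 0.35, adjusted p = 0.0281). Of 13 p53 targets of apoptosis tested in mLN, 5 rose in DKO Treg cells and 0 fell (median 0.38): Perp (3.49 ± 0.57, adjusted p = 0.00139), Pmaip1, the gene of Noxa (2.01 ± 0.37, adjusted p = 0.00276), Bax (0.61 ± 0.13, adjusted p = 0.00635) and Siva1 (0.67 ± 0.15, adjusted p = 0.00682) had the smallest adjusted p, and Pidd1 was the other. Perp, Pmaip1 and Ei24 were the 3 of 13 that rose in CD4+Foxp3- cells of mLN, and Pmaip1 (adjusted p = 0.0430) the 1 of 12 in those of spleen and pLNs. In Treg cells of spleen and pLNs 0 of 12 passed with edgeR and 1 with DESeq2 (4 had an unadjusted p under 0.05). The edgeR calls of these and the lists below in Treg cells of spleen and pLNs (Sesn2, Zmat3, Cbx7, Myc and Mki67) were lost without either WT Treg library or DKO Treg number 1 (adjusted p between 0.122 and 0.543). Those in CD4+Foxp3- cells (Phlda3 and Pmaip1) were lost without either WT library (0.426 to 0.737), and Pmaip1 also without DKO number 1 (0.0859). In Treg cells of mLN, Sesn2 and Polk each missed the threshold in 5 of 6 fits with 1 library left out. For CD4+Foxp3- cells of mLN only 1 gene rose and 1 fell over all 15795 when only those 2 groups were fitted. At most 1 of the calls there, in these and the lists below, thus held.

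Of 19 genes of p53 and its regulators, 2 rose in DKO Treg cells of mLN, the checkpoint kinase genes Chek1 (1.36 ± 0.22, adjusted p = 0.00122) and Chek2 (1.05 ± 0.19, adjusted p = 0.00255), with a list median of -0.0046. In the 3 other DKO to WT comparisons 0 of 19 passed with edgeR, and 0 to 2 with DESeq2 (between 3 and 6 had an unadjusted p under 0.05). Of 4 further CDK inhibitor genes 1 rose in mLN Treg cells, Cdkn3 (1.81 ± 0.34, adjusted p = 0.00295), a phosphatase gene expressed in dividing cells, and 0 in the 3 other comparisons with edgeR, 0 to 1 with DESeq2 (0 to 2 had an unadjusted p under 0.05).

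Of 14 regulators of the CDK inhibitors, 2 rose and 2 fell in DKO Treg cells of mLN. The E2F factor gene E2f1 rose (1.41 ± 0.13, adjusted p = 7.05e-05), as did Cks1b (1.34 ± 0.21, adjusted p = 0.0010), whose product helps to target p27 for degradation. Cbx7, a Polycomb subunit known as a repressor of the Cdkn2a locus, fell (-0.74 ± 0.17, adjusted p = 0.00825), and so did Foxo3, a forkhead factor (-0.91 ± 0.21, adjusted p = 0.00883). Cbx7 also fell in spleen and pLNs (-1.16 ± 0.17, adjusted p = 0.00618), where Myc rose (0.86 ± 0.17, adjusted p = 0.0274) and none of the rest passed. Among CD4+Foxp3- cells 1 of 14 rose in mLN, Cks1b (0.99 ± 0.21, adjusted p = 0.0234), and 0 passed in spleen and pLNs with edgeR or with DESeq2 (5 had an unadjusted p under 0.05).

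The CDKs and cyclins that the inhibitors bind also rose in mLN: 6 of 11 rose in DKO Treg cells and 4 of 11 in CD4+Foxp3- cells, with 0 lower and list medians of 1.38 and 0.33. Ccna2 (1.67 ± 0.19, adjusted p = 0.000166), Cdk1 (1.49 ± 0.19, adjusted p = 0.00034), Ccne1 (1.38 ± 0.18, adjusted p = 0.000389) and Ccnb1 (1.59 ± 0.22, adjusted p = 0.000517) led in Treg cells, followed by Ccne2 and Cdk6. Ccna2, Ccnb1, Cdk1 and Cdk6 were the 4 in CD4+Foxp3- cells. With only the 2 CD4+Foxp3- groups of mLN fitted, 1 gene rose and 1 fell over all 15795. At most 1 of the calls given here for these cells thus held. The direct partners differed: Cdk6 went from 9.42 ± 0.66 to 19.5 ± 3.0 CPM (1.05 ± 0.26, adjusted p = 0.0134). Cdk4 went from 139 ± 6.3 to 182 ± 23 CPM (0.39 ± 0.10, adjusted p = 0.0128, under 1.5-fold) and Cdk2 from 27.2 ± 2.6 to 32.4 ± 3.9 CPM (0.25 ± 0.11, adjusted p = 0.139; SD, n = 3). Proliferation genes rose for 11 of 12 in DKO Treg cells of mLN and, with the limit above, for 7 of 12 in CD4+Foxp3- cells there. Those in Treg cells were led by Rrm2 (1.4 ± 0.14, adjusted p = 0.000103), Mki67 (2.18 ± 0.24, adjusted p = 0.00013), Mcm2 (0.65 ± 0.07, adjusted p = 0.000143) and Mcm5 (1.01 ± 0.12, adjusted p = 0.000179). Their summed level lay between 1519 and 1891 CPM in DKO Treg cells and between 850 and 935 CPM in WT Treg cells of mLN. The part of dividing cells in the Cdkn1a, Cdkn2a, Cdkn2c and Hipk2 values was not tested. The 1 of 12 that rose in Treg cells of spleen and pLNs was Mki67 (3.48 ± 0.72, adjusted p = 0.0361), and DESeq2 called 4 (10 had an unadjusted p under 0.05). Mki67 stood at 27.5 and 4.44 CPM in the DKO against 1.61 and 1.25 CPM in the WT libraries, and its log2 fold change was 1.62 (adjusted p = 0.518) without DKO Treg number 1. In CD4+Foxp3- cells 0 of 12 passed with edgeR and 3 with DESeq2 (10 had an unadjusted p under 0.05). The CDKs and cyclins had 0 of 11 past the threshold there in either cell type with edgeR, and 0 and 1 with DESeq2 (4 and 7 had an unadjusted p under 0.05).

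**Figure D4:**
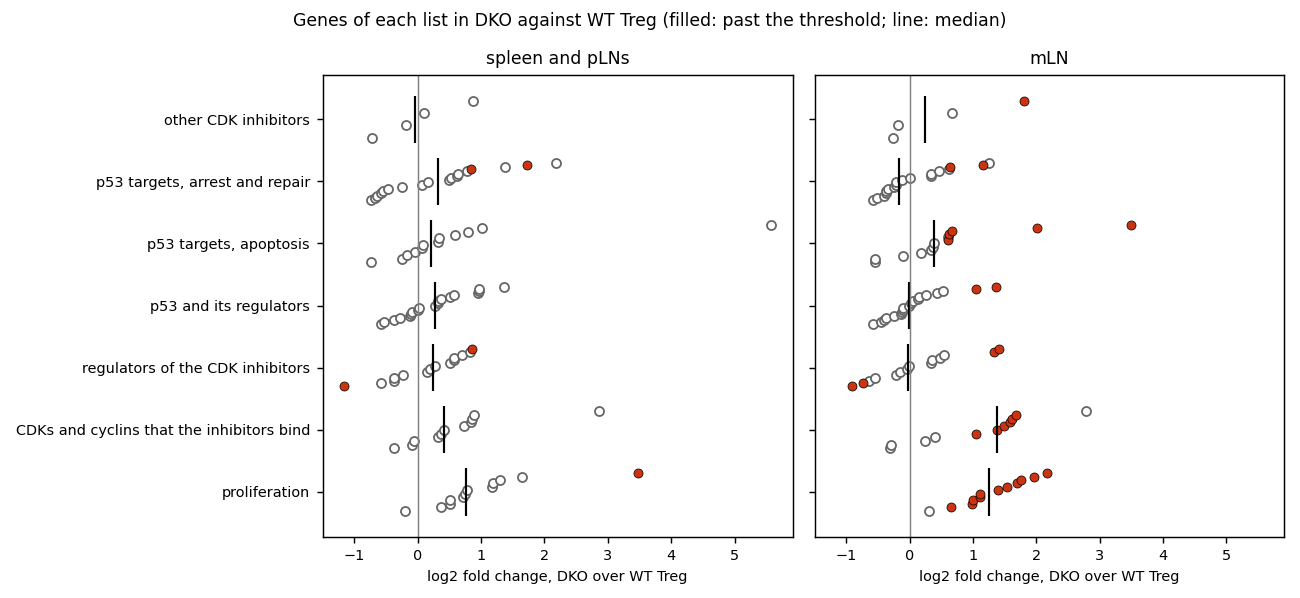
Log2 fold change in DKO against WT Treg cells for every gene of 7 lists, in spleen and pLNs and in mLN, with filled points past the threshold and a line at each list's median. In mLN 11 of 12 proliferation genes and 6 of 11 CDKs and cyclins are filled, against 2 of 18 p53 targets of arrest and repair.

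For each of the 8 genes, the 3 genes of most similar course were sought over the 12 mLN libraries, among the 9475 genes that averaged 5 CPM or more. These correlations are descriptions across libraries that share genotype, cell type and depth. Cdkn1a was most like Ces2c (r = 0.99), Dnph1 (0.98) and S100a4 (0.98), but over the 8 spleen libraries r was 0.96 for Ces2c and -0.72 for S100a4. Hipk2 was most like Kdelc1 (0.98), Mcm6 (0.98) and Larp1b (0.98), with 0.63, 0.77 and 0.94 in spleen and pLNs. Cdkn2c was most like Rilpl2 (0.98), Ifitm2 (0.98) and Arid3a (0.98; 0.81, 0.78 and 0.42), and Cdkn2d like Arl4c (0.98), Hsd11b1 (0.98) and Acvrl1 (0.98; 0.88, 0.95 and 0.86). Those of Cdkn2a included Ccne1, the gene of a cyclin E that partners CDK2. Cdkn2a was most like Tssc1 (0.92), Emc8 (0.92) and Ccne1 (0.92), with 0.29 for Tssc1 and 0.58 for Ccne1 in spleen and pLNs, and Cdkn1b like Mob4 (0.87), Gm5801 (0.87) and Gbas (0.84), with 0.27 for Gm5801 and 0.84 for Gbas. Mdm2 was most like Zcchc2 (0.93), Usp6nl (0.90) and Nup88 (0.88; 0.33, 0.35 and 0.61), and Ccng1 like Elof1 (0.98), Mtmr14 (0.96) and Pts (0.95; -0.02, 0.40 and 0.82). Among the 8 themselves, Cdkn1a, Cdkn2c and Hipk2 went together over the mLN libraries (r between 0.83 and 0.91) and Cdkn2d went against each of them (r between -0.89 and -0.87). Over the spleen libraries Cdkn1a and Hipk2 again went together (0.87) and against Cdkn2d (-0.85 and -0.95), but r of Cdkn2c was 0.15 with Cdkn1a, 0.19 with Hipk2 and -0.37 with Cdkn2d.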

How the data were processed

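RNA-seq of 20 sorted samples was used. The authors mapped reads to mm9 (TopHat2 2.1.1, multi-hits limited to 1) and assigned them by strand to RefSeq gene names (featureCounts, Subread 1.4.3-p1). The deposited counts are raw reads per gene, and the deposited TPM were scaled by gene length and depth by the authors, in a way not given in the sources used here. All count columns matched a sample. Counts were normalized by TMM and tested with edgeR 4.0.16 (quasi-likelihood, all 4 groups of 1 tissue fitted together, genes with at least 1 count in total, Benjamini-Hochberg over all genes; call at adjusted p of at most 0.05 and 1.5-fold, the interaction on adjusted p alone), in R 4.3.3 with limma 3.58.1. The filter and thresholds are those of the study; DESeq2 1.42.0, the authors' tool, and other settings were alternatives. Positions are from GENCODE M1 (NCBIM37, the assembly of mm9).

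The workflow was tested on simulated data. No 2 libraries of the same group were alike within sampling noise. In mLN, deviations from group means of same-numbered Treg and CD4+Foxp3- libraries correlated between 0.28 and 0.33 in WT and between 0.15 and 0.52 in DKO over genes averaging 5 CPM or more, so numbers were taken to pair them within a genotype. Between genotypes the correlations were -0.04 to 0.13 for Treg and 0.02 to 0.18 for CD4+Foxp3- libraries, and numbers were not taken as pairs. WT Treg and DKO CD4+Foxp3- libraries, which were not compared directly, correlated between 0.10 and 0.13, and DKO Treg and WT CD4+Foxp3- libraries between -0.11 and 0.06. TPM ratios of DKO to WT Treg cells were shifted by a median of 0.34 (log2) in spleen and pLNs and 0.18 in mLN against CPM ratios, so TPM served only to compare genes. The 8 genes and the lists were chosen with earlier results of these data known. Named genes are the 8, their partners, Tet2, Tet3, Foxp3, at most 4 called genes per list of smallest adjusted p in mLN Treg cells, the 3 genes of highest Pearson r for each of the 8 (mLN), and list genes said to be chosen later. Floors and the intervals of count ratios cover counting error only, whereas intervals of log2 fold changes come from the fitted SE, which includes the spread between libraries. The latter use a normal approximation, so they are somewhat narrower than the quasi-likelihood test would give.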

Additional observations from a re-analysis of the deposited data

Results flagged for a closer look

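The DKO effect on Cdkn1b went in opposite directions in the cell types of mLN: all 3 DKO Treg libraries lay below all 3 WT Treg libraries, and all 3 DKO CD4+Foxp3- libraries lay above all 3 WT ones. Cdkn1b was flagged by this separation, and the share of all genes that separate so was not counted. The difference of the effects, tested as the interaction of genotype and cell type, was -0.55 on the log2 scale (SE 0.12, adjusted p = 0.0800, edgeR). It passed with DESeq2 (adjusted p = 0.00239) and with pairing by number (adjusted p = 0.0342). These 2 settings called 409 and 118 of all 16784 genes, against 47 in the test used throughout. In spleen and pLNs the same difference was -0.40 (SE 0.28, adjusted p = 0.998), with lower DKO values in both cell types. What sets the cell types apart was not tested.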

How the results depend on the processing

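Each log2 fold change of the 8 genes that was called under some setting kept its sign under the alternatives run, but counts of calls among the 8 moved, most of all in spleen and pLNs with 2 libraries per group. For DKO against WT Treg cells of spleen and pLNs (2 called) the count was 0 with filterByExpr and with the robust prior, 4 with DESeq2 and with only the 2 groups compared, and 0 to 3 with 1 library left out. For CD4+Foxp3- cells there (0) it was 0 to 3, for WT Treg against CD4+Foxp3- cells (0) it was 1 with only the 2 groups compared and 0 to 0 with 1 library left out, and for DKO Treg against CD4+Foxp3- cells (3) it was 0 with only the 2 groups compared and 0 to 4 with 1 left out. In that last comparison Hipk2 was called in 6, Cdkn2a in 8 and Cdkn1a in 9 of 10 alternatives. The interaction there (0) ranged from 0 to 1. In mLN, DKO against WT Treg cells (4) gave 3 to 3 with 1 library left out. CD4+Foxp3- cells (2) gave 1 with the robust prior, 0 with only the 2 groups compared and 0 to 3 with 1 left out. WT Treg against CD4+Foxp3- cells (2) gave 3 with DESeq2 and 1 to 2 with 1 library left out, DKO Treg against CD4+Foxp3- cells (3) gave 1 with only the 2 groups compared and 3 to 4, and the interaction (0) gave 1 with DESeq2 and 0 to 1. In the WT comparison of mLN, Cdkn2c was called in 5 of 10 alternatives. Causes were not tested. Where 1 of 2 libraries was left out, the lone library was assumed to vary like the other groups.

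The replicate block on the numbers left the count at 2 for DKO against WT Treg cells of spleen and pLNs and at 4 for those of mLN. Same-numbered libraries of spleen and pLNs correlated between 0.20 and 0.31. Both DKO cell types there came from the same littermates, but the labels do not tie a number to a mouse. With the replicate block within genotype, DKO Treg against CD4+Foxp3- cells of spleen and pLNs gave 1 call (Cdkn2a and Hipk2 were lost), and the mLN interaction gave 1 (Cdkn1b), as it did with gene length correction and replicate block. Beside Cdkn1b and Cdkn2c, it changed no other call of the 8 in mLN. Over all genes the replicate block within genotype raised the mLN interaction from 47 calls to 118.

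Chosen after seeing the data, the number 1 DKO libraries of spleen and pLNs were left out together (1 library then stood for each DKO group), which gave 4 calls for Treg cells, 1 for CD4+Foxp3- cells, 1 for WT Treg against CD4+Foxp3- cells and 2 for the interaction. Over all 15648 genes these comparisons then called 1283, 411, 2043 and 412, against 285, 134, 654 and 1 with all libraries. Without the number 2 DKO libraries of mLN the counts were 4 for Treg cells, 2 for CD4+Foxp3- cells and 1 for the interaction, with 2310, 581 and 538 over all genes.

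Over all genes, calls for DKO against WT Treg cells were 285 in spleen and pLNs, but 24 with filterByExpr and 1256 with only the 2 groups compared, and 2001 in mLN, between 1859 and 3249. With 1 library left out they were 4 without either WT Treg library, 11 without DKO Treg number 1 and 1696 without DKO Treg number 2 in spleen and pLNs, and between 1325 (without WT Treg number 2) and 1946 in mLN. For CD4+Foxp3- cells of mLN the 575 calls fell to 2 with only the 2 groups compared, and with 1 library left out were 57 to 110 without any one WT library and 1453 without DKO number 1. With 1 library left out the 47 interaction calls of mLN ranged from 9 (without WT Treg number 2) to 462 (without DKO CD4+Foxp3- number 2). Depth limits the statements on Cdkn2a and Cdkn2b most, with libraries at or under 3 counts.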
